A study of Mus musculus with 3 samples.

Results

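The enzymes of glycolysis and of glycogen synthesis and breakdown, with the isoenzymes that replace each other between tissues, were followed in normal mouse muscle. The set was a list of 39 genes chosen by name, of which 36 had a probe set assigned to that gene alone in the array's annotation, out of 12394 genes measured. Gpi1, Eno1 and Pfkfb1 were not analysed here. Each gene was read from 1 probe set, a group of short probes against the 3' end of its transcript. Where a gene had several, the brightest on average was taken. The samples were 3 pieces of muscle, called muscle 1, muscle 2 and muscle 3, with 1 array each, from mice 3 to 6 weeks old whose genotype is given as littermate control. In the study they served as the normal tissue beside tumours that arose from Pax7-expressing satellite cells, the stem cells of muscle; tumours were not analysed here. Neither the muscle sampled, nor the sex, the strain or the alleles the littermates carried are in the labels. The treatment text, written for the whole series, describes 4-hydroxytamoxifen given into the hindlimb of mice that formed tumours, and does not say whether littermate controls received it. The labels do not say either that the muscles came from separate animals, so SDs and p-values cover the spread among these 3 samples alone, and that spread may be technical.

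Glycolysis splits glucose into pyruvate and yields ATP without oxygen, and lactate dehydrogenase turns pyruvate into lactate. Skeletal muscle, above all its fast fibres, stores glucose as glycogen and breaks it down during contraction. Many steps are catalysed by isoenzymes encoded by separate genes, and muscle is known for its own forms of phosphofructokinase, phosphoglycerate mutase, enolase and glycogen phosphorylase. Inherited loss of several of these muscle forms causes exercise intolerance in humans.

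Levels are log2 RMA values, so a difference of 1 is a 2-fold difference. To set a background level, 69 genes known from organs such as retina, testis, liver, brain and pancreas were read in each muscle, and the 95th percentile of their 98 probe sets was taken. In muscles 1, 2 and 3 it was 6.12, 6.15 and 6.23, and a gene above it is called detected. Of those 69 genes, 5 were themselves detected in all muscles. All 10 genes fixed as markers of skeletal muscle were detected, with means from 12.85 to 13.62, and 0 of 4 measured liver markers were. The highest value on any array was 13.75, and saturation could not be tested.

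Of the 36 measured enzymes and regulators, 32 were detected in all 3 muscles and 4 in none, against 55.2% of all genes detected in all 3. Among genes for muscle isoenzymes 11 of 12 were detected, and the exception was Ppp1r3a. Among genes for isoenzymes first known from other tissues 7 of 10 were detected, and the exceptions were Aldoc, Eno2 and Fbp1. All 14 measured enzymes and regulators outside these 2 classes were detected. Each detected gene was above background in every muscle, and each of the other 4 was below it in every muscle. Just above the background level lay Pgm2, at 6.17, 6.28 and 6.44 in muscles 1, 2 and 3, and the nearest gene below it was Aldoc, at 5.22, 4.57 and 5.19. Probe sets bind with different strength, so the levels of different genes are given side by side and not as ratios of RNA.

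**Figure D1:**
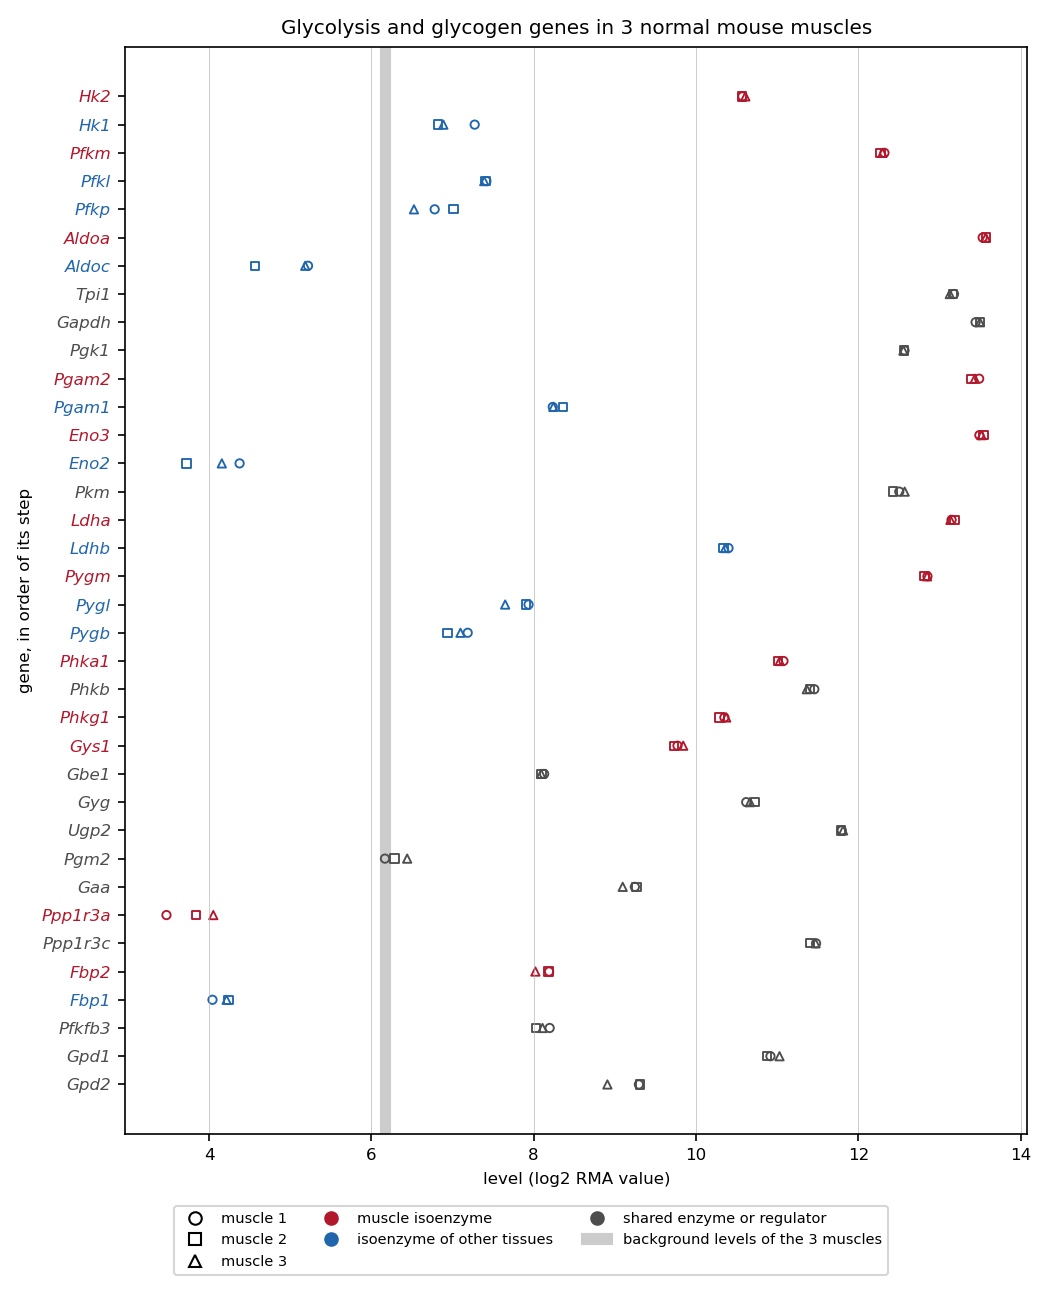
Levels of the 36 measured genes as log2 RMA values (x axis) in each muscle, 1 symbol per muscle, with genes down the page in the order of their steps and coloured by class. The grey band spans the background levels of the 3 muscles, from 6.12 to 6.23; Aldoc, Eno2, Ppp1r3a and Fbp1 lie to its left and the symbols of most other genes nearly coincide.

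Hexokinase, which traps glucose in the cell as glucose phosphate, was detected in both forms. Hk2, the insulin-regulated form of muscle, heart and fat, was at 10.57, 10.57 and 10.61 in muscles 1, 2 and 3, and differed little between them. Hk1, the form of brain and red blood cells, was at 7.27, 6.82 and 6.89, with muscle 1 above the others. Phosphofructokinase commits sugar to glycolysis, and its muscle gene Pfkm was at 12.32, 12.27 and 12.30. The liver form Pfkl was at 7.42, 7.41 and 7.39 on its highest probe set, within 0.03 of each other, and at 6.93, 6.67 and 6.93 on its second, which was lowest in muscle 2. The platelet form Pfkp was at 6.78, 7.01 and 6.53, highest in muscle 2 and lowest in muscle 3. Aldolase cleaves the resulting sugar. Its muscle gene Aldoa was at 13.53, 13.58 and 13.57, close to the top of the scale, whereas the brain form Aldoc was below background throughout.

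Several genes of the middle and lower steps of glycolysis also lay near the top of the scale. Triose phosphate isomerase (Tpi1) averaged 13.16 ± 0.03, glyceraldehyde phosphate dehydrogenase (Gapdh) 13.48 ± 0.03 and phosphoglycerate kinase (Pgk1) 12.56 ± 0.01 (SD, n = 3). On the highest probe set of each gene, Pgk1 had the smallest SD of the detected members, 0.0066. Its other probe sets had SDs of 0.06 and 0.03. Muscle phosphoglycerate mutase (Pgam2) was at 13.49, 13.39 and 13.43 in muscles 1, 2 and 3. Its sister Pgam1, known from brain and most other tissues, was detected as well, at 8.24, 8.36 and 8.24. Muscle enolase (Eno3) was at 13.49, 13.54 and 13.52, and the neuronal enolase Eno2 was below background at 4.38, 3.72 and 4.16. Pyruvate kinase (Pkm), which makes pyruvate and whose splice forms were not separated here, was at 12.50, 12.43 and 12.57. Lactate dehydrogenase was detected in both subunits. The muscle subunit Ldha averaged 13.16 ± 0.03 and the heart subunit Ldhb 10.37 ± 0.03.

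The 250 bases before the transcript starts of the mutase and enolase genes are shown because in each pair the muscle form lay near the top of the scale, while Pgam1 averaged 8.28 ± 0.07 and Eno2 was below background. Sequences are from RefSeq on GRCm38.p6, 5′ to 3′ on the strand of the gene. Capitals mark matches, on either strand, to the consensus of the muscle transcription factor MEF2, to the E-box CAGCTG bound by myogenic factors, to ACGTG, the core bound by hypoxia-inducible factor, and to TATAAA or GGGCGG. Pgam2 lies at chr11:5803797-5804046 on the minus strand, Pgam1 at chr19:41911621-41911870 on the plus strand, Eno3 at chr11:70656926-70657175 on the plus strand and Eno2 at chr6:124769674-124769923 on the minus strand.
Pgam2: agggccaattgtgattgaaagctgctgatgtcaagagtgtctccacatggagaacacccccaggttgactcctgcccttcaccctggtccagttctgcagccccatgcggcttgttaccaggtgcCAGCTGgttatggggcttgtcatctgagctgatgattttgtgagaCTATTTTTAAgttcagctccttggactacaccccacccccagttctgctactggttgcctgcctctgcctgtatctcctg
Pgam1: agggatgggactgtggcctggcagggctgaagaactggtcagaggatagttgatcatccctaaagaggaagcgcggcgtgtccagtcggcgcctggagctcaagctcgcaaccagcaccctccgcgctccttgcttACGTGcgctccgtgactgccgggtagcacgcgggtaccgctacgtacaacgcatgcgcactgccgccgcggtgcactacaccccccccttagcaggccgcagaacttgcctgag
Eno3: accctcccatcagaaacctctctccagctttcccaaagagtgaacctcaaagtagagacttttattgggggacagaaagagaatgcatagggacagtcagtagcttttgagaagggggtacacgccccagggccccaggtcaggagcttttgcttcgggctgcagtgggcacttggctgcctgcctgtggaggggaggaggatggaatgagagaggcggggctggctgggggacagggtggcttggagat
Eno2: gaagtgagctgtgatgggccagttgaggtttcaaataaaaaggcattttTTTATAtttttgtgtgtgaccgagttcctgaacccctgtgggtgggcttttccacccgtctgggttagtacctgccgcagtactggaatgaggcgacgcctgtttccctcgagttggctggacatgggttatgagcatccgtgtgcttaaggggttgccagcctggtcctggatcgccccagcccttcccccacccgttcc
The Pgam2 window held CAGCTG followed by a match to the MEF2 consensus, the Pgam1 window held ACGTG, and the Eno2 window held TATAAA read on the other strand. No searched motif was in the Eno3 window, which says only that these letters are not in it.

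Glycogen breakdown begins with glycogen phosphorylase. The muscle gene Pygm, whose loss causes McArdle disease in humans, was at 12.85, 12.82 and 12.85 in muscles 1, 2 and 3. The liver form Pygl was detected at 7.94, 7.91 and 7.65, lowest in muscle 3, and the brain form Pygb at 7.19, 6.94 and 7.10, lowest in muscle 2. Phosphorylase kinase switches phosphorylase on in response to calcium and adrenaline. Its muscle alpha subunit Phka1 averaged 11.04 ± 0.04, its beta subunit Phkb 11.41 ± 0.05 and its muscle catalytic subunit Phkg1 10.34 ± 0.04. The lysosomal glucosidase Gaa, which is deficient in Pompe disease, was at 9.25, 9.27 and 9.10.

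Of the genes grouped here under glycogen synthesis, Ugp2, Gyg, Gys1, Gbe1 and Pgm2 were detected. Ugp2, which makes the activated glucose donor, averaged 11.80 ± 0.01. The glycogenin gene Gyg, whose protein primes each glycogen particle, averaged 10.67 ± 0.05, the muscle glycogen synthase Gys1 averaged 9.78 ± 0.06 and the branching enzyme Gbe1 averaged 8.11 ± 0.02. Pgm2 averaged 6.30 ± 0.14 and was barely above background. RefSeq lists Pgm1 and Pgm2 as older names of each other in mouse. The Pgm2 read here is the gene on chromosome 5, and Pgm1 is a separate gene. Whether Pgm2 serves glycogen synthesis in muscle was not tested. Pgm1, a member of the wider pathway list that was named after its values were seen, averaged 11.54 ± 0.04. Protein phosphatase is brought to glycogen by targeting subunits. Ppp1r3c, a subunit of muscle, liver and other tissues, was at 11.48, 11.41 and 11.47. Ppp1r3a, known as the subunit of striated muscle, was below background at 3.48, 3.84 and 4.05. It rests on a single probe set, and a low signal does not show that the RNA was absent.

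Fructose bisphosphatase runs the phosphofructokinase step backwards. The muscle form Fbp2 was detected at 8.19, 8.18 and 8.02 in muscles 1, 2 and 3, and the liver and kidney form Fbp1 was below background at 4.04, 4.24 and 4.22. Pfkfb3, which makes the sugar bisphosphate that activates phosphofructokinase, was at 8.20, 8.03 and 8.11. The glycerol phosphate shuttle carries electrons from glycolysis into mitochondria. Its cytosolic enzyme Gpd1 was at 10.92, 10.88 and 11.03, and its mitochondrial enzyme Gpd2 at 9.30, 9.31 and 8.91. Muscle 3 was highest for Gpd1 and lowest for Gpd2.

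The windows of Fbp2 and Fbp1 are shown because Fbp2 was detected and Fbp1 was not, although both genes lie on chromosome 13. The windows are at chr13:62858401-62858650 and chr13:62888283-62888532, both on the minus strand.
Fbp2: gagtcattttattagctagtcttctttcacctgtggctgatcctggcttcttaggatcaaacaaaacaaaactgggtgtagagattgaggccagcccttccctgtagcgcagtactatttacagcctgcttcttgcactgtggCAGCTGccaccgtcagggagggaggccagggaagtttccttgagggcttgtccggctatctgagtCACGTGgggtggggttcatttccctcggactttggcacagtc
Fbp1: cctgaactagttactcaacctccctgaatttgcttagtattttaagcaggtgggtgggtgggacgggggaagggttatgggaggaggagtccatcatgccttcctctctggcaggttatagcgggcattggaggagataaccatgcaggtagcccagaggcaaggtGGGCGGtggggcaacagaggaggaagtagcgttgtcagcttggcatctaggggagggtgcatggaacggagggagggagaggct
The Fbp2 window held CAGCTG and, further on, ACGTG on both strands as CACGTG. The Fbp1 window held GGGCGG.

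Over all measured members, the annotation table gave 47 transcript starts of 35 genes, and Gpd1 was not in it. CAGCTG was found before 9 of the 47 starts, or 19.1%, against 13.0% of all 32851 starts in the table. Within the classes it stood before 6 of 18 starts of muscle isoenzymes and 0 of 12 starts of isoenzymes from other tissues. The genes with it in the muscle class were Fbp2, Gys1, Pgam2, Phka1, Ppp1r3a and Pygm. A MEF2 match was found before 2 starts, those of Pgam2 and Ppp1r3a, or 4.26% against 2.92% of all starts. ACGTG was found before 20 starts, or 42.6% against 16.6%. These were 8 of 18 starts of muscle isoenzymes, 3 of 12 of isoenzymes from other tissues and 9 of 17 of the remaining members. The genes with it included Ldha, Aldoa and Pfkm among muscle isoenzymes, and Pgk1 and Pfkfb3 among the remaining members. Among isoenzymes from other tissues they were Pgam1, Pygb and Pygl. For GGGCGG the shares were 44.7% and 32.7%, and for TATAAA 4.26% and 12.4%. Starts of the same gene can overlap, and a match is a description of the letters, not evidence of binding. Ppp1r3a held both CAGCTG and a MEF2 match and was still below background on its probe set.

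Several probe sets were available for 16 of the 32 detected members, and their agreement shows how far a level depends on the probe set. The gap between the highest and the lowest probe set of a gene had a median of 1.39 in these members, against 2.50 in all 3522 detected genes with several probe sets. The 4 probe sets of Ldhb lay within 0.19 of each other, those of Phkg1 within 0.15 and those of Gaa within 0.19. At the other end, Gpd1 had probe sets at 10.94, 9.34, 4.16 and 2.64, and Ppp1r3c at 11.45 and 5.39. In 5 members, Hk1, Pfkp, Pfkfb3, Gpd1 and Ppp1r3c, at least 1 further probe set lay below background throughout. The call of Hk1, Pfkp, Pfkfb3 and Ppp1r3c as detected thus rests on 1 of their 2 probe sets. The other lay at 3.85, 4.62, 4.12 and 5.39, in that order. All 4 probe sets of Aldoa are marked as matching several transcripts, as are the highest probe sets of Ldhb and Phkg1. Processed pseudogenes of Gapdh, Aldoa, Pgk1, Tpi1 and Ldha are common in the mouse genome. Part of the signal of all these genes may therefore be shared.

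**Figure D2:**
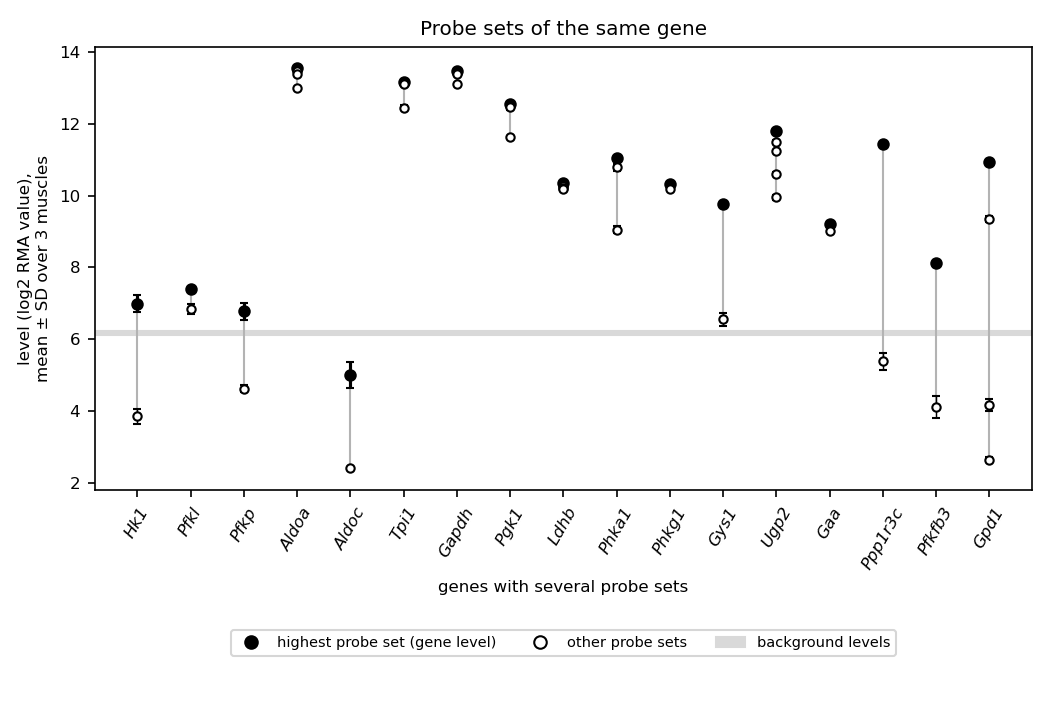
Levels of the probe sets of each member that has several (y axis, log2 RMA value, mean ± SD over 3 muscles), with the highest probe set as a filled point and the others open. Grey lines join probe sets of the same gene and the grey band marks the background levels; Gpd1 spans from 2.64 to 10.94, whereas Ldhb, Phkg1 and Gaa lie close together.

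The 3 muscles differed little in these genes. Over the 32 detected members the median SD was 0.0449, against 0.0754 over all 6836 genes detected in every muscle. Spread depends on level, and the members lie higher than most genes, with a median level of 10.63 against 8.19. In the band from 12 to 14 the median SD was 0.0256 for 10 members against 0.0270 for 178 genes. In the band from 10 to 12 it was 0.0395 for 9 members against 0.0408 for 890 genes. In the lower bands the members spread more, with medians of 0.0854 for 7 members against 0.0662 for 2691 genes between 8 and 10, and 0.148 for 6 members against 0.105 for 3077 genes between 6 and 8. Set against limma's fitted trend of SD on level, 14 of 32 members were above the trend, or 43.8% against 40.1% of all detected genes.

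No detected member spanned 2-fold between muscles, where 0.284% of the 7385 genes detected in at least 1 muscle did. None of the 32 spanned 1.5-fold either, where 2.32% of these genes did. Among the detected members the widest spans were those of Pfkp, 1.40-fold, Hk1, 1.37-fold, and Gpd2, 1.32-fold. By limma's variance test, which compares the variance of a gene with that of genes of like level, 0 of 32 members varied in excess after Benjamini-Hochberg adjustment over 7385 genes, of which 0.0812% were called. At an unadjusted p under 0.05 there were 2 members, Gpd2 and Pkm, where 5.08% of all genes passed. In limma's test Gpd2 had an unadjusted p of 0.0068 and an adjusted p of 0.731, with muscle 3 lower than the mean of the others by 0.39. Pkm had an unadjusted p of 0.0403 and an adjusted p of 0.963 in limma's test, with a range of 0.14. Neither departure passed the test.

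**Figure D3:**
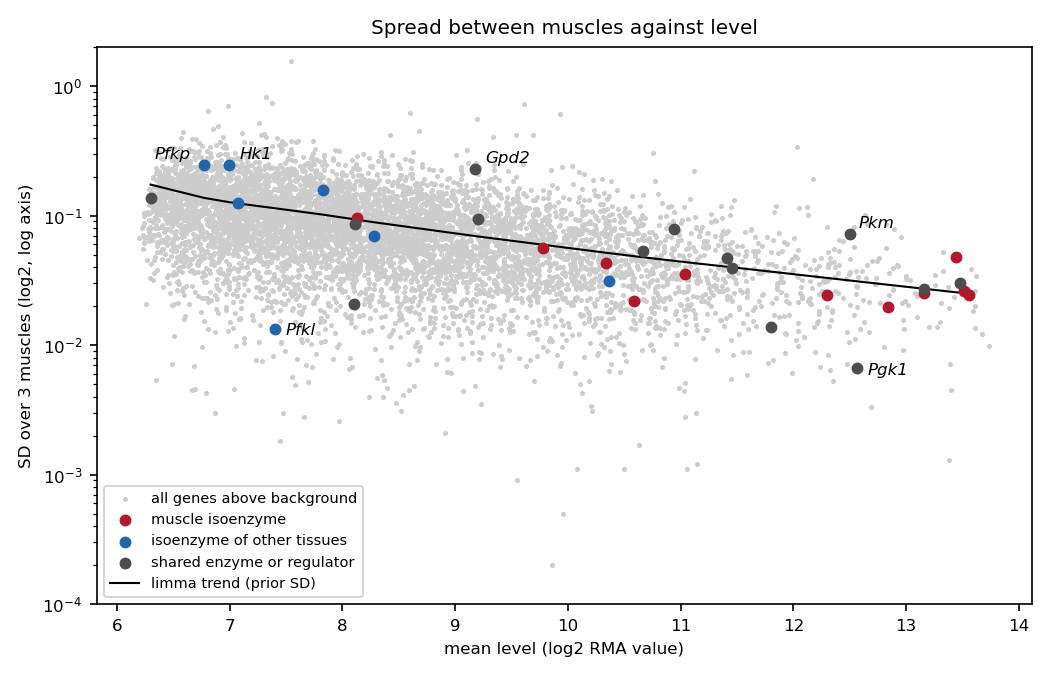
SD over the 3 muscles (y axis, log2 units on a log axis) against mean level (x axis, log2 RMA value) for all 6836 genes detected in every muscle (grey) and the 32 detected members (coloured by class), with limma's trend as a line. Gpd2, Hk1, Pfkp and Pkm lie above the line, and Pfkl and Pgk1 lie well below it.

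The direction of the small departures differed between genes. Of the 32 detected members, 16 were highest in muscle 1, where 41.0% of all detected genes were. Muscle 2 was the lowest for 15 members, or 46.9% against 29.4%, and muscle 3 for 11, or 34.4% against 47.5%. For each muscle, its departure in a gene was computed by subtracting the average of the other muscles from its level. For muscles 1, 2 and 3 its median over the members was 0.02, -0.02 and -0.01, and over all detected genes 0.03, 0.01 and -0.03. For the 11 muscle isoenzymes the medians were 0.02, -0.03 and 0.00. Of these 11, 5 were higher in muscle 3 than the mean of the others. For the 7 isoenzymes of other tissues the medians were 0.05, 0.00 and -0.05. Of these 7, only Pygb was higher in muscle 3 than the mean of the others. Of all detected genes, 36.2% were higher there by the same measure. These shifts were not tested as groups.

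**Figure D4:**
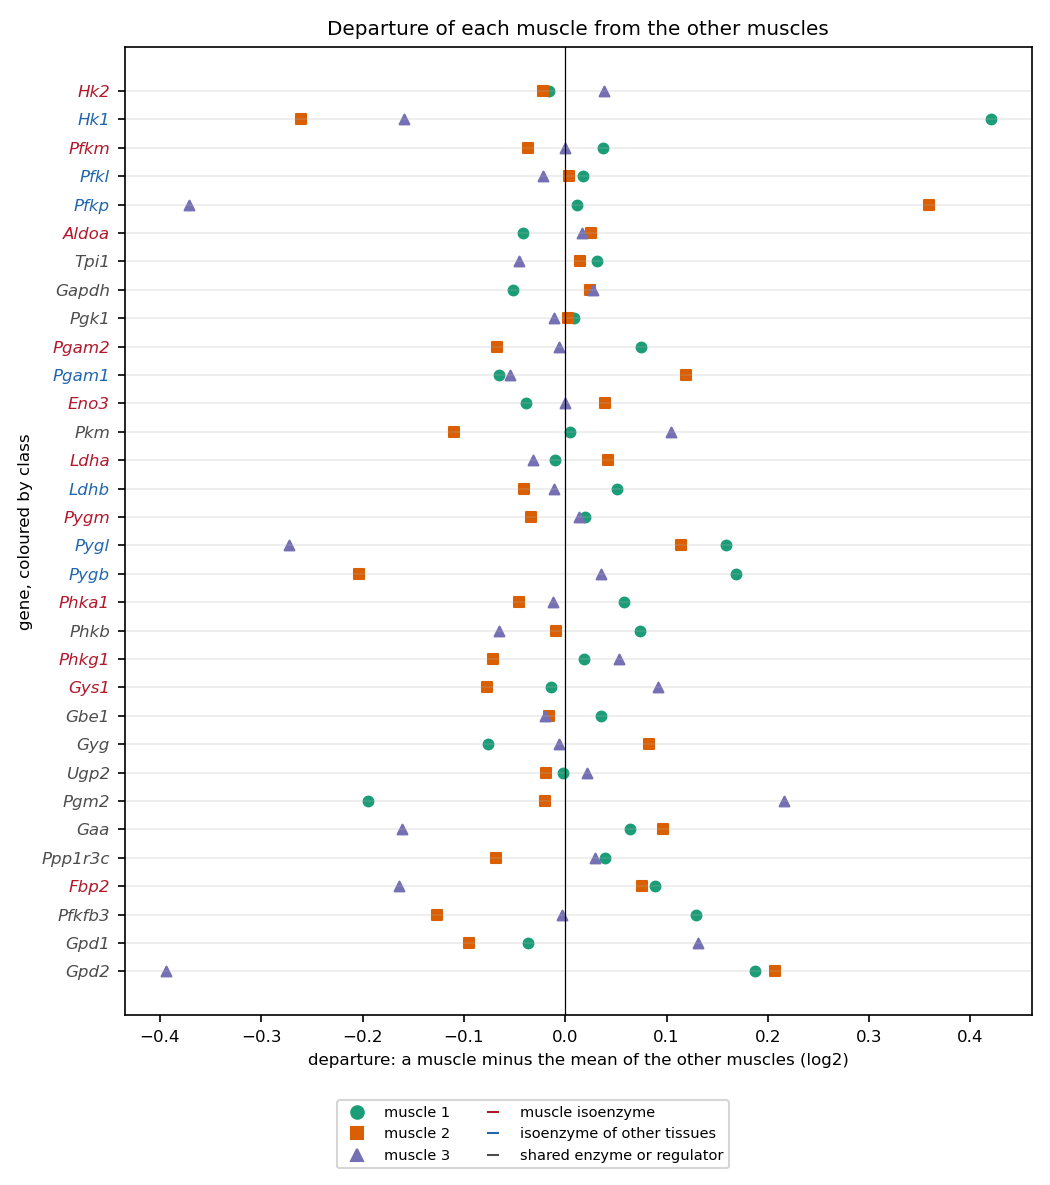
Level of each muscle less the average of the others (x axis, log2) for the 32 detected members (down the page, coloured by class), with a symbol for each muscle. Of 96 symbols, 73 lie within 0.1 of 0; the exceptions include Hk1 in muscle 1, Pfkp in muscles 2 and 3, Pygl in muscle 3 and Gpd2 in muscle 3.

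The genes with the largest departures were isoenzymes of other tissues and Gpd2. Hk1 departed in muscle 1 by 0.42. Pfkp departed in muscle 2 by 0.36 and in muscle 3 by -0.37, and Pygl departed in muscle 3 by -0.27. Other cell types of whole muscle are known to express such isoenzymes, and in bulk tissue fewer cells of a type and less RNA per cell cannot be told apart. All 5 endothelial markers were detected and were lower in muscle 3 than the mean of the others, with a median departure of -0.19, and their summed linear level was 801 there, against 945 in muscle 1 and 963 in muscle 2. Of 5 macrophage markers, Adgre1, Csf1r and Cd163 were detected and were lower in muscle 3 than the mean of the others, with a median departure of -0.16, while Cd68 and Itgam were below background throughout. The summed linear level of the macrophage list was 1299 in muscle 3, against 1425 and 1456 in muscles 1 and 2. The 5 fibroblast markers departed by a median of -0.01 in muscle 3. Over all detected genes the median departure in muscle 3 was -0.03, and 36.2% were higher there than the mean of the others. Of 4 measured adipocyte markers, 3 were detected in every muscle, and in muscle 3 Adipoq departed by -0.17 while Cidec and Lipe departed by 0.20 and 0.32. The part of these cells in the departures of Pfkp, Pygl and Gpd2 was not tested.

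Other probe sets of the same gene followed in some cases only. The 3 probe sets of Phka1 were all highest in muscle 1, with departures of 0.06, 0.10 and 0.16. Both of Gys1 were highest in muscle 3, with departures of 0.09 and 0.31. Both detected probe sets of Gpd1 were highest in muscle 3, with departures of 0.13 and 0.10. Both of Gaa were lowest there, with departures of -0.16 and -0.04. For Pgk1 the probe set with the highest mean departed by -0.01 in muscle 3 and the others by 0.10 and 0.05. For Phkg1 the probe sets departed by -0.07 and 0.11 in muscle 2. For Pfkl the highest probe set departed by 0.00 in muscle 2 and the second by -0.26. The probe sets of Gapdh were all highest in muscle 3. Those of Aldoa, Tpi1, Ldhb and Ugp2 were not all highest in the same muscle. Gpd2, Pygl and Pkm have a single probe set, and the other probe sets of Hk1 and Pfkp were below background, so their departures could not be set against a further detected probe set.

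Because the binding strength of a probe set is the same on every array, the difference between isoenzymes of a pair can be followed across the muscles, although its size cannot be read as a ratio. The SD of that difference over 3 muscles was 0.02 for Pfkm minus Pfkl on the highest probe set of Pfkl, but 0.13 on its second, a comparison chosen after seeing the data. It was 0.05 for Ldha minus Ldhb on the highest probe set of Ldhb. On the other probe sets of Ldhb, also compared after seeing the data, it was 0.02, 0.03 and 0.01. It was 0.11 for Pgam2 minus Pgam1 and 0.11 for Pygm minus Pygb. The SD was 0.17 for Pygm minus Pygl, 0.25 for Hk2 minus Hk1 and 0.26 for Pfkm minus Pfkp. In the last 3 pairs the muscle isoenzyme itself had an SD of 0.02, so the variation lay in the other member. That member lay at a lower level, where genes spread more. The SD of limma's trend was 0.10 at Pygl, 0.13 at Hk1 and 0.14 at Pfkp. It was 0.03 at Pygm, 0.05 at Hk2 and 0.03 at Pfkm. None of these genes was called by limma's variance test. Gpd1 minus Gpd2 had an SD of 0.30. In muscle 3 it was higher than the mean of the others by 0.53, with its genes departing in opposite directions. The pairs with a member below background are not given in this way.

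A wider list of 48 genes of the same pathways covered 33 measured genes, of which 21 were detected in all muscles, 4 in some and 8 in none, against 55.2% of all genes detected in all 3. The muscle glucose transporter Slc2a4 averaged 11.86 ± 0.03 and the widespread transporter Slc2a1 averaged 7.86 ± 0.14. The lactate carriers Slc16a1 and Slc16a3, known from oxidative and from glycolytic fibres, averaged 9.60 ± 0.15 and 8.82 ± 0.07. Stbd1, which binds glycogen and guides it to lysosomes, averaged 10.53 ± 0.04. Among isoenzymes known from other organs, the testis forms Pgk2, Gapdhs and Ldhc were below background, at 3.50 ± 0.08, 5.38 ± 0.29 and 5.40 ± 0.08, as was the liver glycogen synthase Gys2 at 4.15 ± 0.04. Others, such as Pck1, Pklr and Phkg2, were above it in all muscles. Pck1, which makes phosphoenolpyruvate in liver and kidney, was at 6.87, 6.32 and 6.66 in muscles 1, 2 and 3. It was not among the genes of this list that were planned to be named. The pyruvate kinase gene of liver and red blood cells, Pklr, was at 7.01, 6.54 and 6.50 in muscles 1, 2 and 3. Pck1 and Pklr were not far above background. They were read from the brightest of 2 and 3 probe sets, in that order, and their other probe sets were not compared. The testis and liver phosphorylase kinase subunit Phkg2 was detected at 7.31 ± 0.08. The liver alpha subunit Phka2, at 6.37, 6.15 and 6.44, was above background in 2 muscles, since 6.15 in muscle 2 lies just under the level there.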

How the data were processed

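RNA of 3 normal mouse muscles was measured on 3' expression arrays, with 500 ng of total RNA as input per the labels' protocols. The values the authors deposited are on the log2 scale, 1 per probe set and array. Per the submitters' processing notes they come from RMA, which quantile-normalizes arrays together. Which version was used, and on which arrays, is not given in the sources used here. A change shared by most genes would therefore not show.

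Of 22690 probe sets, 20393 were assigned to 1 gene, 691 to several and the rest to none in GEO's platform annotation; 20364 matched RefSeq (GRCm38.p6) by gene number, and 0 symbols differed. Background, gene level and classes are defined where first used. With 1 group there is no contrast. Excess variance was tested with limma 3.58.1 in R 4.3.3 (robust prior, trend on level; upper-tail F test, Benjamini-Hochberg adjusted over all genes, threshold 0.05), after the method was tested on simulated data. In the simulated data every gene had the SD of the trend, and the moves were larger than any departure of the detected members. They do not show how often departures of the size seen would be called. Other steps used Python 3.11.15, numpy 2.4.6 and pandas 2.3.3. All listed genes were named, with sister isoenzymes and carriers from the wider list. The members and lists were chosen with earlier results of these data known. The number of arrays limits the precision.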

Additional observations from a re-analysis of the deposited data

How the results depend on the processing

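The count of 32 detected genes was 29 with probe sets averaged, where Hk1, Pfkp and Pfkfb3 fell out. It was 31 without probe sets marked as matching several transcripts, where Aldoa had none left. With background at the 99th percentile it was 30, and Pfkp and Pgm2 fell out. It was 32 after quantile normalization, median centring or leaving out any muscle. Centring shifts a muscle and its background alike, and each member was on the same side of background in every muscle. Centring or leaving out a muscle could therefore hardly change the count. Without the background filter there is no such count. In each alternative run, 0 members were called by limma and 0 spanned 2-fold. Leaving out a muscle can only narrow the span of a probe set, so those runs do not test the span. At an unadjusted p under 0.05 limma gave 0 to 3 members. The median SD of 0.0449 lay between 0.0412 and 0.0503, and between 0.0347 and 0.0383 with 2 muscles. Averaging probe sets moved the level of 17 of 36 genes by more than their SD. No paired analysis was possible because the samples form 1 group.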

Other observations

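Genes that steer pyruvate and glucose were read from the wider pathway list and named after their values were seen. The pyruvate dehydrogenase kinases hold pyruvate back from mitochondria. Pdk4 and Pdk2, the forms known from muscle, averaged 11.44 ± 0.02 and 10.44 ± 0.06, and Pdk1 averaged 7.43 ± 0.05. Pdk3 was at 6.39, 6.37 and 6.13 in muscles 1, 2 and 3, below background in muscle 3. The catalytic subunits of protein phosphatase that Ppp1r3c and Ppp1r3a bring to glycogen were all detected, with Ppp1ca at 10.78 ± 0.04, Ppp1cb at 11.17 ± 0.07 and Ppp1cc at 11.59 ± 0.03. The glycogen synthase kinases Gsk3a and Gsk3b averaged 8.91 ± 0.02 and 7.55 ± 0.17. Of the genes of glucose release, the liver phosphatase G6pc was below background at 4.51 ± 0.06, whereas its widespread relative G6pc3 averaged 8.32 ± 0.10 and the glucose phosphate carrier Slc37a4 averaged 10.98 ± 0.08.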
